A study of Mus musculus with 8 samples.

Results

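Glycolysis and the response to low oxygen were followed through 36 named genes in mouse embryonic stem cells given siPOOLs, which are mixtures of many small interfering RNAs against 1 transcript. The genes were taken as a list of symbols, matched through the Ensembl identifiers of the count table to GENCODE M21, and all 36 of 36 were found among the 55421 genes counted. All 36 also passed the filter on low counts, with 14647 genes of the table. The list holds 4 glucose and lactate transporters, 10 enzymes or regulators of upper glycolysis, 6 enzymes of lower glycolysis, 4 genes of the lactate and pyruvate switch, 4 genes of HIF regulation and 8 HIF target genes outside glycolysis.

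The cells were E14 embryonic stem cells of 129/Ola background, kept in serum and LIF on gelatin. Every group, the control included, carried the MiR-290-295 knockout, so no group has the microRNAs of that cluster. The groups were siTfap4, siWiz and siZic2, each named for the transcription factor targeted, and siNeg, a negative control siPOOL. Each siPOOL was used at 5 nM with Lipofectamine RNAiMax, and cells were harvested after 36 h. Each group had 2 libraries, called biological duplicates in the series design; whether they came from separate transfection days is not stated, and the p-values measure the spread between these libraries. RNA was read from transcript ends with the QuantSeq 3′ kit, so a count stands for a transcript end and is not divided by length.

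Glycolysis splits glucose into pyruvate in the cytosol. Hexokinases, Gpi1, phosphofructokinases, aldolases and Tpi1 make up its upper steps, and Gapdh, Pgk1, Pgam1, enolases and pyruvate kinase its lower, energy-yielding steps. Lactate dehydrogenases and pyruvate dehydrogenase kinases set how much pyruvate is turned to lactate instead of entering mitochondria. HIF1 is a pair of a regulated subunit (Hif1a) and a constant one (Arnt). With oxygen present, Egln prolyl hydroxylases mark Hif1a for the Vhl ubiquitin ligase; without it, HIF1 binds the core sequence ACGTG or GCGTG and activates many glycolysis genes. Embryonic stem cells are known for a high rate of glycolysis also in normal oxygen.

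Library totals ran from 8326675 to 8829051 counts in siTfap4, from 10544436 to 11200948 in siWiz, from 9328709 to 13788856 in siZic2 and from 10795092 to 11395211 in siNeg. All 12 of 12 embryonic stem cell markers were detected, with summed levels of 3373 and 3484 CPM (CPM is the count relative to the TMM-scaled library size) in siTfap4 against 3943 and 3776 CPM in siNeg. Markers of primitive endoderm (8 of 8 detected) summed to 50.2 and 34.2 CPM in siTfap4 against 31.9 and 27.6 CPM in siNeg; no marker list of trophectoderm or fibroblasts passed 11.7 CPM in any library, and the neural list lay between 49.1 and 86.6 CPM, with Postn and Neurog2 at 0 throughout. Tfap4 had 12.0 and 15.7 CPM in siTfap4 against 33.4 and 37.1 CPM in siNeg, with an edgeR adjusted p of 0.00417. Wiz had 16.8 and 19.7 CPM in siWiz against 49.9 and 46.1 CPM in siNeg, a log2 fold change of -1.40 with an edgeR adjusted p of 0.708; it was called by DESeq2 (adjusted p = 0.00315) and by edgeR with no filter beyond 1 count (adjusted p = 0.0118). Zic2 had 2.15 and 1.83 CPM in siZic2 against 4.49 and 2.21 CPM in siNeg, with an edgeR adjusted p of 1. Under other ways of fitting, its log2 fold change ran from -1.16 to -0.109. Its levels rest on 31 and 17 reads in siZic2 against 54 and 23 reads in siNeg. In siWiz it had 29 and 21 reads, and in siTfap4 50 and 46 reads. The label of siZic2 is therefore not borne out by its own target.

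In siTfap4 the 36 genes divided: Pgam1, Slc16a3, Pfkl and Gpi1 rose and Gapdh, Slc2a1, Kdm3a and Tpi1 fell against siNeg. Thus 4 of 36 were called higher, where 4.24% of the 14647 genes tested were, and 4 of 36 were called lower, where 11.7% were; in either direction it was 8 of 36, beside 15.9% of all genes. A call is an adjusted p under 0.05 in edgeR's quasi-likelihood test, adjusted by Benjamini-Hochberg over all genes tested. The median log2 fold change of the 36 was 0.06, beside 0.01 over all genes tested, and single genes ran from -2.89 to 1.22. The transporters, upper glycolysis and lower glycolysis each had genes called in both directions. In siWiz and in siZic2, 0 of the 36 were called against siNeg, where 0% of all genes were. A level in these bulk libraries is per total RNA, in which fewer cells of a type and less RNA per cell cannot be told apart. The embryonic stem cell markers also went both ways in siTfap4 against siNeg, 6 of 12 with a positive and 6 with a negative log2 fold change and a median of 0.06. Pou5f1 (log2 fold change 1.02) and Lin28a (0.81) were called higher and Nanog (-1.48) lower. Pou5f1 had 57.4 and 48.1 CPM in siTfap4 against 24.4 and 27.5 CPM in siNeg. Copies of marker transcripts elsewhere in the annotation were not searched. The part of these marker differences, and of the smaller totals of siTfap4, in the calls was not tested. The calls depended on the libraries, among the 36 and over all genes tested alike. In both sets, fewer genes were called in either direction without siTfap4 replicate 1, and more without siTfap4 replicate 2. Fewer were also called higher, in both sets, without any 1 of the siNeg or siZic2 libraries. With 1 library left out, log2 fold changes ran from 0.825 to 1.51 in Pgam1 and 0.662 to 1.37 in Slc16a3. They ran from 0.573 to 1.12 in Pfkl and 0.499 to 1.15 in Gpi1. Among the genes that fell they ran from -2.98 to -2.79 in Gapdh and -1.43 to -1.16 in Slc2a1. In Kdm3a they ran from -1.53 to -0.986 and in Tpi1 from -1.23 to -0.995.

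**Figure D1:**
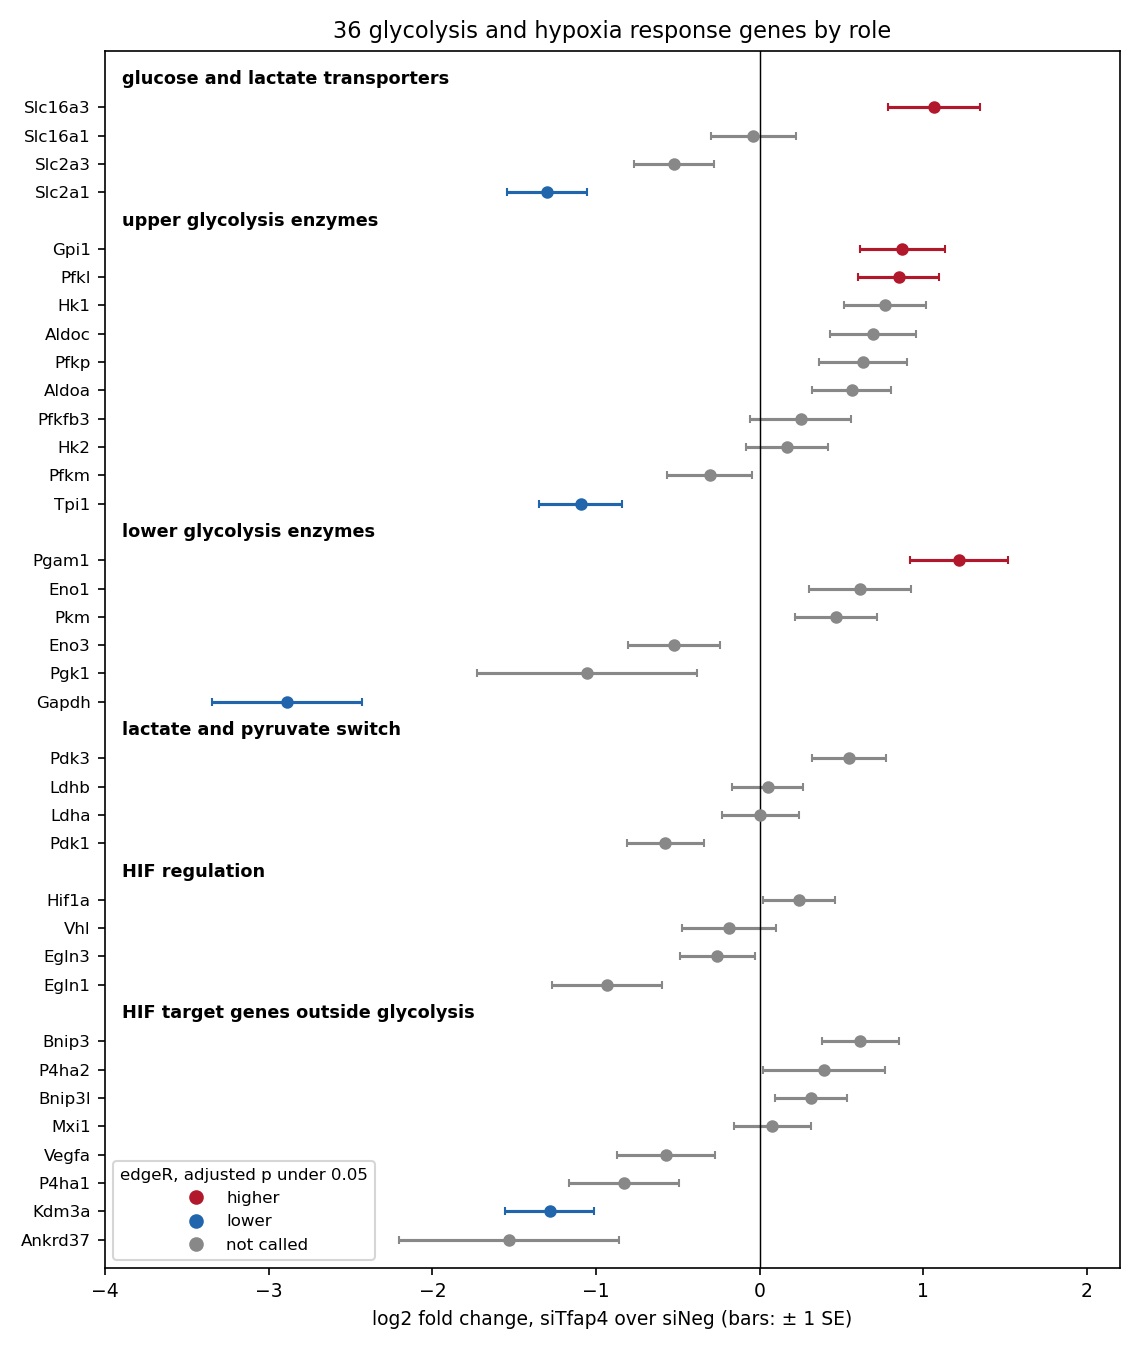
Log2 fold change of each of the 36 genes in siTfap4 over siNeg, with 1 SE on each side, in blocks by role. Red points were called higher, blue points lower and grey points not called; Gapdh lies farthest from 0, at -2.89.

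Glucose enters through Slc2a1 (Glut1) and Slc2a3 (Glut3), and lactate passes through Slc16a1 (Mct1) and Slc16a3 (Mct4). Slc2a1 (ENSMUSG00000028645; GRCm38 chr4:119108711-119137983, plus strand) had 168 and 161 CPM in siTfap4, 499 and 340.3 CPM in siWiz, 428 and 397 CPM in siZic2, and 438 and 372.5 CPM in siNeg. Both siTfap4 libraries lay below all 6 others, and the gap to the lowest of these was wider than that between any duplicates. Slc2a1 was 2.46-fold lower in siTfap4 than in siNeg (log2 fold change -1.30, SE 0.25, edgeR adjusted p = 0.00455). Slc2a3 had 207 and 318 CPM in siTfap4 against 378 and 377 CPM in siNeg, with a log2 fold change of -0.52 that was not called (edgeR adjusted p = 0.157). Of the reads of this pair, 44.8% and 33.6% were of Slc2a1 in siTfap4, against 53.7% and 49.7% in siNeg.

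Slc16a3 (ENSMUSG00000025161; GRCm38 chr11:120948480-120960868, plus strand) had 125 and 76.8 CPM in siTfap4, 39.8 and 53.5 CPM in siWiz, 45.4 and 40.8 CPM in siZic2, and 55.7 and 40.7 CPM in siNeg. It was higher in both siTfap4 libraries than in the 6 others, while these duplicates differed from each other more than those of any other group. Slc16a3 was 2.09-fold higher in siTfap4 than in siNeg (log2 fold change 1.07, SE 0.28, edgeR adjusted p = 0.0235). The call was lost without siTfap4 replicate 1 (edgeR adjusted p = 0.23) and without siNeg replicate 2 (edgeR adjusted p = 0.114). Slc16a1 had 50.3 and 39.9 CPM in siTfap4 against 54.7 and 38.0 CPM in siNeg, and these ranges overlap. Slc16a3 held 71.4% and 65.8% of the pair's reads in siTfap4, against 50.5% and 51.8% in siNeg.

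Among the upper steps, 8 of 10 genes had a positive log2 fold change in siTfap4 over siNeg, with a median of 0.60 against 0.01 over all genes tested; 2 were called higher and 1 lower. Gpi1 (ENSMUSG00000036427; GRCm38 chr7:34201330-34230336, minus strand), which turns glucose 6-phosphate into fructose 6-phosphate, had 638 and 405 CPM in siTfap4, 247 and 307 CPM in siWiz, 279 and 254 CPM in siZic2, and 271 and 299 CPM in siNeg. Both siTfap4 libraries were above the 6 others, and replicate 1 was the higher. Gpi1 was 1.83-fold higher in siTfap4 than in siNeg (log2 fold change 0.87, SE 0.26, edgeR adjusted p = 0.0369). Pfkl (ENSMUSG00000020277; GRCm38 chr10:77986947-78010083, minus strand), the liver-type subunit of phosphofructokinase, had 271 and 192 CPM in siTfap4, 107 and 116 CPM in siWiz, 117 and 114 CPM in siZic2, and 149 and 108 CPM in siNeg. Its siTfap4 libraries again stood above all others, the lower of them by less than the gap between the siTfap4 duplicates. Pfkl was 1.80-fold higher in siTfap4 than in siNeg (log2 fold change 0.85, SE 0.25, edgeR adjusted p = 0.0353).

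These 2 calls held in 12 of 18 alternatives for Gpi1 and in 10 of 18 for Pfkl, fewer than for the other 6 called genes. Gpi1 was not called without siTfap4 replicate 1 (edgeR adjusted p = 0.309), siNeg replicate 1 (0.16), siNeg replicate 2 (0.0721), siZic2 replicate 1 (0.0601) or siZic2 replicate 2 (0.0588), nor with siTfap4 and siNeg fitted alone (0.0911). Pfkl was not called without siTfap4 replicate 1 (edgeR adjusted p = 0.261), siNeg replicate 2 (0.169), siZic2 replicate 1 (0.062) or siZic2 replicate 2 (0.0612). Pfkl was also not called with the 2 groups fitted alone (edgeR adjusted p = 0.0891), with library totals alone (0.0583) or once GC content and transcript length were corrected for (0.0949).

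Tpi1 (ENSMUSG00000023456; GRCm38 chr6:124810586-124814296, minus strand), which interconverts the pair of triose phosphates made by aldolase, moved the other way. It had 103 and 120 CPM in siTfap4, 298 and 189 CPM in siWiz, 266 and 233 CPM in siZic2, and 227 and 249.6 CPM in siNeg. The siTfap4 libraries were close to each other and below all 6 others. Tpi1 was 2.14-fold lower in siTfap4 than in siNeg (log2 fold change -1.09, SE 0.26, edgeR adjusted p = 0.0134), and not called without siTfap4 replicate 1 (edgeR adjusted p = 0.101).

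The other 7 genes of the upper steps were not called. Hk1, a hexokinase bound to mitochondria, had 70.7 and 52.5 CPM in siTfap4, 32.5 and 38.5 CPM in siWiz, 37.6 and 28.1 CPM in siZic2, and 35.3 and 37.2 CPM in siNeg. Its libraries did not overlap between siTfap4 and siNeg, and its log2 fold change of 0.76 missed the threshold (edgeR adjusted p = 0.0533). Hk1 was called in 5 of 18 alternatives, among them DESeq2 (adjusted p = 0.0344), a filter at a mean of 5 CPM (edgeR adjusted p = 0.0425) and the fit without siTfap4 replicate 2 (edgeR adjusted p = 0.0236). Its relative Hk2, the hexokinase typical of fast-growing cells, had 666 and 538 CPM in siTfap4 against 593 and 481 CPM in siNeg, with overlap. Hk2 held 90.4% and 91.1% of the reads of this pair in siTfap4, against 94.4% and 92.8% in siNeg. Log2 fold changes of the remaining 5 were 0.69 in Aldoc and 0.56 in Aldoa (aldolases), 0.63 in Pfkp and -0.31 in Pfkm (phosphofructokinase subunits) and 0.25 in Pfkfb3, which makes the activator fructose 2,6-bisphosphate. Aldoa had 1792 and 1284 CPM in siTfap4, 975 and 987 CPM in siWiz, 929 and 933 CPM in siZic2, and 972 and 1112 CPM in siNeg.

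**Figure D2:**
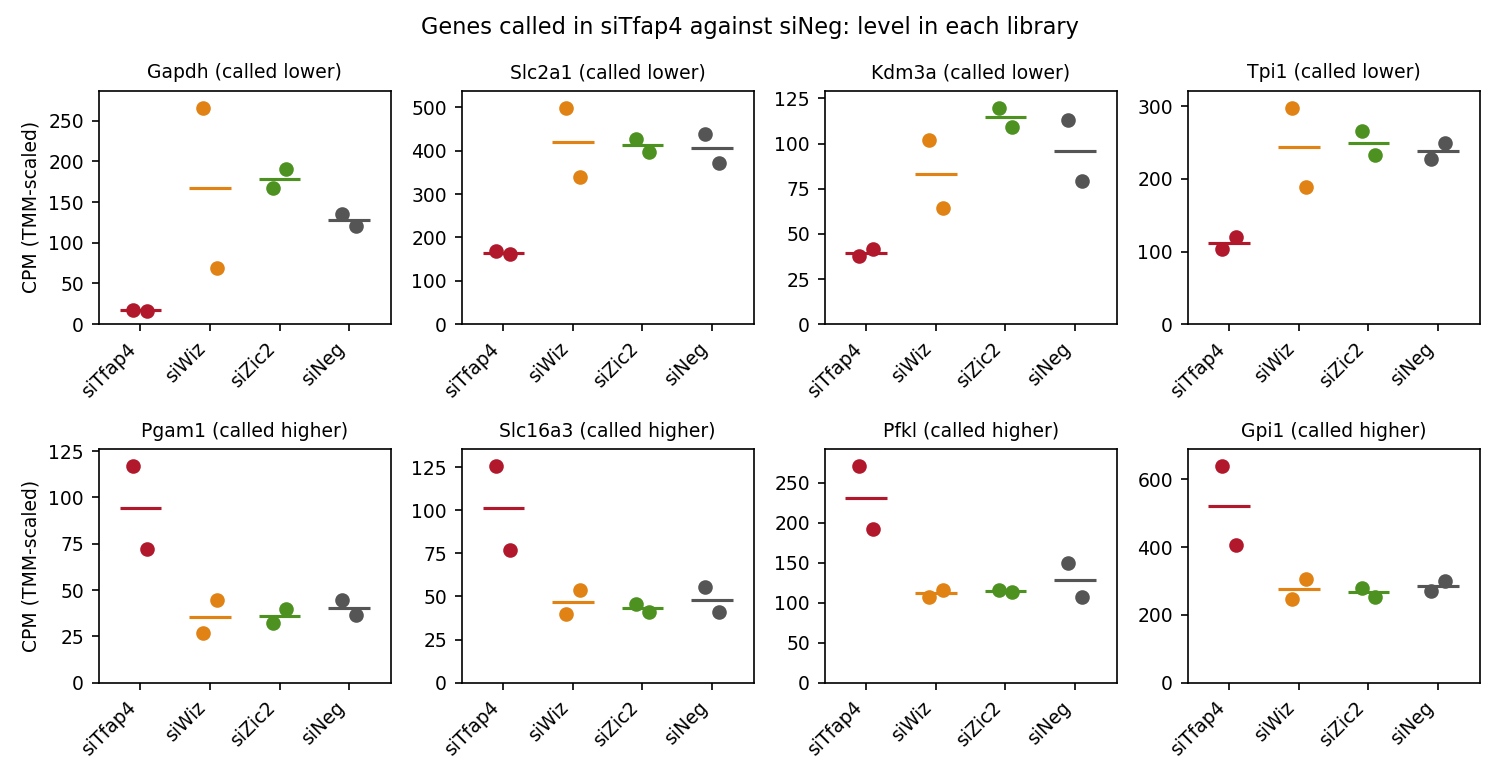
Level of the 8 genes called in siTfap4 against siNeg, in CPM from 0 upwards, in each library (points) with the mean of each group (line); the upper row holds genes called lower and the lower row genes called higher. The 2 siTfap4 libraries of each gene lie beyond all 6 other libraries, and in the lower row they are farther apart than in the upper row.

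In the lower steps, Gapdh was the gene farthest from 0 of all 36. Gapdh (ENSMUSG00000057666; GRCm38 chr6:125161715-125166467, minus strand), which oxidizes glyceraldehyde 3-phosphate and is often used as a loading control, had 17.7 and 16.8 CPM in siTfap4, 266 and 68.8 CPM in siWiz, 167 and 190.3 CPM in siZic2, and 135 and 121 CPM in siNeg. The siTfap4 duplicates were nearly equal and far below the rest, whereas the siWiz duplicates differed more than those of any other group. Gapdh was 7.42-fold lower in siTfap4 than in siNeg (log2 fold change -2.89, SE 0.46, edgeR adjusted p = 0.0017). It was called in all 18 of 18 alternatives tried, with log2 fold changes from -3.32 to -2.41.

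Gapdh is also the member with the most copies, which bears on what its counts hold. Of the 50-base windows in the last 300 bases of its transcript, 80.5% match another annotated transcript with at most 2 mismatches. They fall in 227 gene models, 220 of them pseudogenes, and 88 of the models match at least 25% of the windows. The last 60 coding bases, which end at the stop codon 178 bases before the transcript end, are shown for Gapdh (chromosome 6, minus strand) and for pseudogenes that a read of this stretch could also match. Letters are from GENCODE M21, and capitals mark bases that differ from Gapdh.
Gapdh: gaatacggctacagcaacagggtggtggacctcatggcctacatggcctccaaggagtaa
Gm7336: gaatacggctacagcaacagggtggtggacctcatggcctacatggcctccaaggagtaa
Gm3272: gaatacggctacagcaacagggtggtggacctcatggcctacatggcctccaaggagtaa
Gm5069: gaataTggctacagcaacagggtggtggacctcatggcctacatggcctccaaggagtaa
Gm7336 (chromosome 7) and Gm3272 (chromosome 8) are identical to Gapdh here, and Gm5069 (chromosome 1) differs at C6T, with positions counted from the first base shown. In all, 27 copies had 0 mismatches in this stretch, 28 had 1, 30 had 2 and 29 had 3. A read from it therefore has many possible places, and whether such reads were dropped, split or given to 1 place is not given in the sources used here.

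Reads counted on Gapdh and on the 88 copies were set side by side. Gapdh had 143 and 143 reads in siTfap4, 2979 and 720 reads in siWiz, 2414 and 1769 reads in siZic2, and 1623 and 1260 reads in siNeg. The copies together had 67 and 91 reads in siTfap4, 204 and 102 reads in siWiz, 209 and 153 reads in siZic2, and 165 and 153 reads in siNeg. Copies thus held 31.9% and 38.9% of these reads in siTfap4, against 9.23% and 10.8% in siNeg, and between 6.41% and 12.4% in the other 4 libraries. With the copies' reads added to the gene, Gapdh remained called lower in siTfap4, with a log2 fold change of -2.41 (SE 0.43, edgeR adjusted p = 0.00339). This sum holds only reads that had been counted on Gapdh or on these 88 models. Reads dropped for having several places would be in neither count, so the sum cannot show whether the call holds with them. Copies missing from the annotation were not searched, since no genome sequence was used here.

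**Figure D3:**
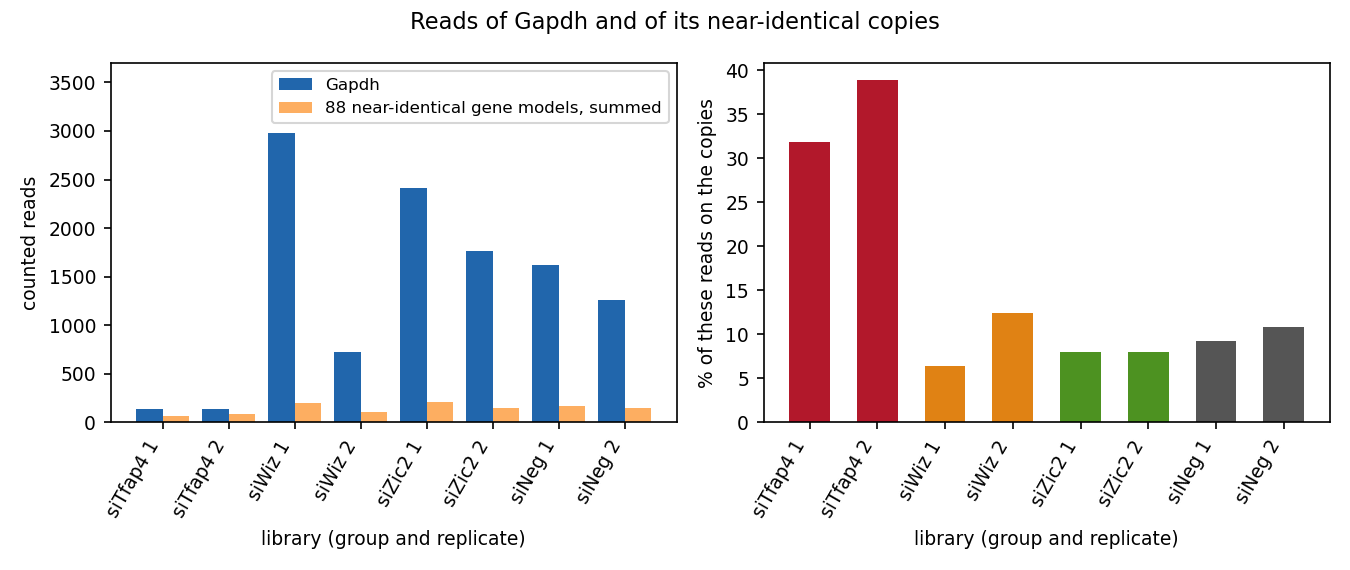
Left, reads counted on Gapdh and on the 88 gene models with a near-identical transcript end, per library; right, the percent of these reads that were counted on the copies. Gapdh reads drop to 143 in both siTfap4 libraries, and the copies' percent there is 31.9 and 38.9, above the 12.4 reached elsewhere.

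Pgk1, the next enzyme and the first to make ATP, was counted at no more than 9.47 CPM in any library. It had 2.98 and 1.41 CPM in siTfap4, 8.65 and 2.10 CPM in siWiz, 7.55 and 9.47 CPM in siZic2, and 6.90 and 2.11 CPM in siNeg. These levels rest on 24 and 12 reads in siTfap4 against 83 and 22 reads in siNeg, and the siTfap4 and siNeg libraries overlap. Its log2 fold change of -1.05 had an SE of 0.67 and was not called (edgeR adjusted p = 0.294). No annotated copy of its transcript end was found, while 68.0% of the windows over the whole transcript match another gene model, with 7 pseudogenes among them.

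Pgam1 (ENSMUSG00000011752; GRCm38 chr19:41911923-41918660, plus strand), which moves the phosphate of phosphoglycerate, had 117 and 72.3 CPM in siTfap4, 26.7 and 44.4 CPM in siWiz, 32.4 and 39.7 CPM in siZic2, and 44.6 and 36.5 CPM in siNeg. Both siTfap4 libraries were above the 6 others. Pgam1 was 2.33-fold higher in siTfap4 than in siNeg (log2 fold change 1.22, SE 0.30, edgeR adjusted p = 0.0173). The call was lost without siTfap4 replicate 1 (edgeR adjusted p = 0.175), siNeg replicate 1 (0.057) or siNeg replicate 2 (0.0796). Eno1, the main enolase of stem cells, had 119 and 62.7 CPM in siTfap4 against 73.2 and 45.6 CPM in siNeg, and overlapped. Pkm, the pyruvate kinase, had 656.5 and 459 CPM in siTfap4 against 349 and 459.5 CPM in siNeg. Eno3, the muscle enolase, had 13.0 and 17.9 CPM in siTfap4 against 18.04 and 26.5 CPM in siNeg. None of these 3 was called, with log2 fold changes of 0.61, 0.46 and -0.52 in that order.

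The lactate and pyruvate switch had 0 of 4 genes called. Ldha, which makes lactate, had 744.5 and 588 CPM in siTfap4, 869 and 689 CPM in siWiz, 701 and 641 CPM in siZic2, and 648 and 680.5 CPM in siNeg. Ldha was thus near the same level in siTfap4 and siNeg, with a log2 fold change of 0.00 (SE 0.24). It held 82.3% and 78.9% of the reads of the Ldha and Ldhb pair in siTfap4, against 82.2% and 80.3% in siNeg. Pdk1 and Pdk3, which switch off pyruvate dehydrogenase, differed in direction. Pdk1 had 175 and 179 CPM in siTfap4 against 258 and 269 CPM in siNeg, and Pdk3 had 97.6 and 91.7 CPM in siTfap4 against 57.6 and 72.0 CPM in siNeg. Neither pair of duplicates overlapped, yet neither gene was called, at log2 fold changes of -0.58 (edgeR adjusted p = 0.108) and 0.55 (edgeR adjusted p = 0.113). Pdk1 held 64.2% and 66.1% of the reads of both kinases in siTfap4, against 81.7% and 78.9% in siNeg.

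Of the HIF regulation genes, 0 of 4 were called in siTfap4 against siNeg. Hif1a had 89.9 and 71.9 CPM in siTfap4 against 69.7 and 67.2 CPM in siNeg, a log2 fold change of 0.24 that was not called. Egln1 (Phd2), the main oxygen-sensing hydroxylase, had 8.68 and 13.0 CPM in siTfap4, 24.7 and 17.7 CPM in siWiz, 30.5 and 22.6 CPM in siZic2, and 26.3 and 15.0 CPM in siNeg. The siTfap4 libraries were the lowest of the 8, with a log2 fold change against siNeg of -0.93 (SE 0.34, edgeR adjusted p = 0.0742). Egln3 (Phd3) had 36.1 and 37.2 CPM in siTfap4 against 47.0 and 40.6 CPM in siNeg, and Vhl 19.0 and 23.1 CPM in siTfap4 against 18.5 and 29.4 CPM in siNeg.

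Kdm3a alone was called among the 8 HIF target genes outside glycolysis. This histone H3 lysine demethylase (ENSMUSG00000053470; GRCm38 chr6:71588972-71632990, minus strand) had 37.6 and 41.5 CPM in siTfap4, 102 and 64.1 CPM in siWiz, 120 and 109 CPM in siZic2, and 113 and 79.3 CPM in siNeg. Its siTfap4 libraries were close to each other and below all others. Kdm3a was 2.43-fold lower in siTfap4 than in siNeg (log2 fold change -1.28, SE 0.27, edgeR adjusted p = 0.00841). It was not called without siTfap4 replicate 1 (edgeR adjusted p = 0.068) or siNeg replicate 1 (edgeR adjusted p = 0.0784).

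The remaining HIF targets went both ways without a call. Ankrd37 rested on 3 and 14 reads in siTfap4 against 31 and 35 reads in siNeg, and its log2 fold change of -1.53 (SE 0.67) came with an edgeR adjusted p of 0.132. P4ha1, a collagen prolyl hydroxylase subunit, had 6.32 and 7.04 CPM in siTfap4 against 14.1 and 9.61 CPM in siNeg (log2 fold change -0.83). Vegfa, the blood vessel growth factor, had 76.0 and 46.9 CPM in siTfap4 against 117 and 66.1 CPM in siNeg, with overlap. Bnip3, which marks mitochondria for removal, had 156 and 125 CPM in siTfap4 against 102 and 81.9 CPM in siNeg, and missed the threshold at a log2 fold change of 0.61 (edgeR adjusted p = 0.0884). Once GC content and transcript length were corrected for, Bnip3 was called higher at a log2 fold change of 1.05 (edgeR adjusted p = 0.00911). Bnip3l, P4ha2 and the Myc antagonist Mxi1 had log2 fold changes of 0.31, 0.39 and 0.08.

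**Figure D4:**
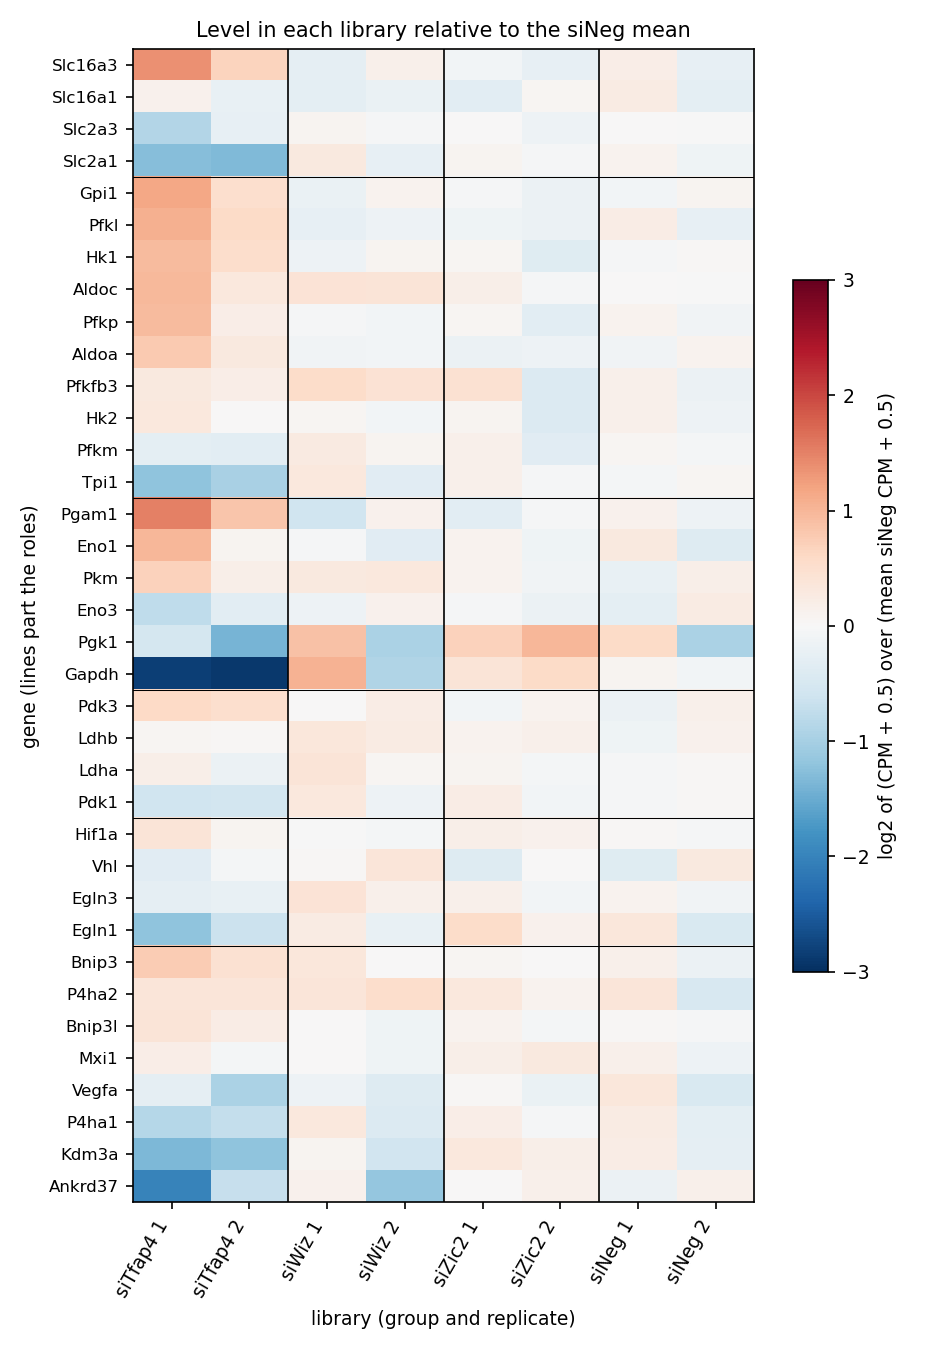
Level of the 36 genes (rows, parted by role) in each of the 8 libraries, as log2 of CPM + 0.5 over the mean siNeg CPM + 0.5; red is above and blue below the siNeg mean. The 2 siTfap4 columns hold the strongest colours, and siTfap4 1 is stronger than siTfap4 2 for most of the genes that are red there.

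Against siNeg, siWiz and siZic2 had 0 of 36 genes called, and 0 of 36 had an unadjusted p under 0.05; of all genes tested, 266 in siWiz and 86 in siZic2 had such a p. DESeq2 also called 0 of the 36. Log2 fold changes ran from -0.44 to 0.51 in siWiz and from -0.18 to 0.90 in siZic2. The smallest p in siWiz belonged to Pfkfb3, with 20.96 and 19.4 CPM in siWiz against 15.9 and 12.4 CPM in siNeg, a log2 fold change of 0.51 (SE 0.30, edgeR adjusted p = 1). Aldoc followed with 36.6 and 36.0 CPM in siWiz against 27.5 and 27.5 CPM in siNeg, and Ldhb with 195 and 182 CPM in siWiz against 140.2 and 167 CPM in siNeg. Both siWiz libraries lay above both siNeg libraries in 8 of the 36 genes, these 3 among them, and below in 0. How many of all genes did so was not counted, and each adjusted p of these 3 was 1. In siZic2 the smallest p belonged to Pgk1, at a log2 fold change of 0.90 (SE 0.60, edgeR adjusted p = 1), then Gapdh at 0.48 (SE 0.42) and Egln1 at 0.36. A p above the threshold does not show that the levels were equal.

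The difference between siPOOLs was tested directly, since all 3 share the siNeg libraries. Against siWiz, 5 of 36 genes were higher in siTfap4, where 4.66% of all genes were, and 4 were lower, where 10.4% were (15.1% of all genes in either direction). These were Pgam1 (log2 fold change 1.41), Slc16a3 (1.12), Pfkl (1.05), Gpi1 (0.91) and Hk1 (0.79) on the higher side. On the lower side they were Gapdh (-3.28), Slc2a1 (-1.35), Tpi1 (-1.12) and Kdm3a (-1.07). The value of Gapdh was -1.99 without siWiz replicate 1 and -3.95 without siWiz replicate 2, and it was called in both. Against siZic2, 6 genes were higher in siTfap4, where 8.41% of all genes were, and 6 were lower, where 14.7% were (23.1% in either direction). Pgam1 (log2 fold change 1.39), Slc16a3 (1.23), Pfkl (1.01), Gpi1 (0.97), Hk1 (0.90) and Aldoa (0.72) were higher, and Gapdh (-3.37), Pgk1 (-1.95), Kdm3a (-1.54), Slc2a1 (-1.33), Egln1 (-1.29) and Tpi1 (-1.16) were lower. Pgk1 was not called without siTfap4 replicate 1 (log2 fold change -2.59, edgeR adjusted p = 0.101) or without siTfap4 replicate 2 (-1.52, edgeR adjusted p = 0.176). Largest edgeR adjusted p-values among these calls were 0.0483 for Hk1 against siWiz and 0.0467 for Pgk1 against siZic2. Against siZic2, Aldoa was called in 9 of 18 alternatives and Pgk1 in 13. Once GC content and transcript length were corrected for, neither was called against siZic2. Aldoa then had a log2 fold change of 0.253 (edgeR adjusted p = 0.406) and Pgk1 -1.73 (edgeR adjusted p = 0.0818). Without siTfap4 replicate 1, fewer of the 36 were called in both directions against siWiz and siZic2, and so were fewer of all genes. The same held against siWiz without siWiz replicate 1, and against siZic2 without siZic2 replicate 1. Without siTfap4 replicate 2, more of the 36 and more of all genes were called higher against siWiz. With 1 library left out, log2 fold changes against siWiz ran from 1.02 to 1.82 in Pgam1 and 0.715 to 1.42 in Slc16a3. They ran from 0.775 to 1.27 in Pfkl, 0.543 to 1.2 in Gpi1 and 0.56 to 0.984 in Hk1.

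Copies of transcript ends were few outside Gapdh. Of the 36 genes, 30 had no annotated copy of any window of the last 300 bases. At 98.8% of windows, Eno1 matched 1 gene, Eno1b, which took at most 2.11% of the reads of both in any library. Bnip3 matched a long noncoding RNA at 62.9% of windows, which took at most 1.95% of the reads of both. Reads of Eno1 or Bnip3 dropped for having several places would be in neither count. These shares therefore cannot show how many reads the copies affect. Smaller stretches were copied for Ldhb (23.9% of windows), Aldoa (17.5%) and Gpi1 (13.9%, over 81 gene models). Of the other genes called in siTfap4, the ends of Slc2a1, Kdm3a, Tpi1, Pgam1, Slc16a3 and Pfkl had no annotated copy. Over whole transcripts 18 of 36 genes matched a pseudogene somewhere. Among the called genes, 84.2% of all windows were copied in Gapdh, 49.8% in Gpi1, 41.5% in Pgam1, 31.1% in Tpi1, 0.951% in Pfkl and 0% in Slc2a1, Kdm3a and Slc16a3.

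Promoters of genes that moved were compared for HIF core letters (ACGTG or GCGTG) and for CAGCTG, the E-box that Tfap4 is known to bind. The 250 bases before the RefSeq start (GRCm38.p6) were found for 34 of the 36 genes. On either strand, ACGTG or GCGTG was present in 82.4% of them, 28 of 34, and in 38.7% of all 27025 promoters of this length, 1 per gene. The list was chosen to hold HIF target genes, and the set of all promoters was not matched to it for expression or base content. This difference is therefore not a result of the libraries. CAGCTG was present in 14.7% of the 34 and in 12.8% of all promoters, and CACGTG, which contains ACGTG, in 8.82% and 6.07%. Of genes called in siTfap4 against siNeg, ACGTG or GCGTG was in 2 of 4 lower and 3 of 4 higher ones, and CAGCTG in 0 of 4 lower and 1 of 4 higher ones (Gpi1). Among genes not called, 23 of 26 held ACGTG or GCGTG. Slc2a1 and Gapdh are shown as genes that fell, Pgam1 and Slc16a3 as genes that rose, and Ankrd37 as the printed window that holds both kinds of site; capitals mark HIF core letters or the E-box on either strand.
Slc2a1: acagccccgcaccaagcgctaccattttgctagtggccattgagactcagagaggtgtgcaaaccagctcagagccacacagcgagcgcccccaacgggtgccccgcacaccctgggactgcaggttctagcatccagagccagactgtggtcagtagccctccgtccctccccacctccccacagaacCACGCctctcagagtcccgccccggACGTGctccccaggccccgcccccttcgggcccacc
Gapdh: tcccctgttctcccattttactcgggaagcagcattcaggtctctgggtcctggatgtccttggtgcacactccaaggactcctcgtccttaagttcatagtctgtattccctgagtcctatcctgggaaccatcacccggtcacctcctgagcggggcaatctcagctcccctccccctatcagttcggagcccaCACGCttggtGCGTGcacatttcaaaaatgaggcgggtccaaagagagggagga
Pgam1: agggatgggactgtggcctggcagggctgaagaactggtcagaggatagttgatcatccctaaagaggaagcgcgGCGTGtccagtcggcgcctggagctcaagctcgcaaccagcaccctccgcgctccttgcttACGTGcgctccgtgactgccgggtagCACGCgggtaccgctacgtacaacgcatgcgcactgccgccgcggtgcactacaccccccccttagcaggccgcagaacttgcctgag
Slc16a3: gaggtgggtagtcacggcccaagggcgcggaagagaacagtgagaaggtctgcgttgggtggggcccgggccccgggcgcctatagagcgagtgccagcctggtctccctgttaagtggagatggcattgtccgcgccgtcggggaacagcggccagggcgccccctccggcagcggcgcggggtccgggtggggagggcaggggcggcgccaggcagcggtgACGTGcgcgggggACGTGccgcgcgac
Ankrd37: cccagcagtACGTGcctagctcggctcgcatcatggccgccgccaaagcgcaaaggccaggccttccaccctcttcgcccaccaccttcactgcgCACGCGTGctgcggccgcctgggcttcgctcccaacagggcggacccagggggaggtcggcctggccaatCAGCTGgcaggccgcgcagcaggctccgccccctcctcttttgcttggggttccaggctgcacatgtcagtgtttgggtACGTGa
The windows are chr4:119108495-119108744 (plus strand), chr6:125165774-125166023 (minus strand), chr19:41911621-41911870 (plus strand), chr11:120948817-120949066 (plus strand) and chr8:45999851-46000100 (minus strand). HIF core letters occur 2 times in each of Slc2a1, Gapdh and Slc16a3, 3 times in Pgam1 and 4 times in Ankrd37, where CAGCTG occurs 1 time. A match of letters is a description of the window and not a binding site.

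Other genes of the same pathways were counted for context. Of 37 further glycolysis and pyruvate genes, 28 were tested, and in siTfap4 against siNeg 3 were called higher and 2 lower, beside 4.24% higher and 11.7% lower of all genes tested. The list's median log2 fold change was 0.13, beside 0.01 over all genes. Galk1 (galactokinase), Pgm1 (phosphoglucomutase) and Eno2 (the neuronal enolase) rose, with log2 fold changes of 1.28, 1.12 and 2.97. Eno2 had 3.97 and 2.46 CPM in siTfap4 against 0.50 and 0.29 CPM in siNeg. Dlat and Dld, subunits of the pyruvate dehydrogenase complex, fell by 0.87 and 0.91 on the log2 scale. These 5 calls depended on siTfap4 replicate 1 and siNeg replicate 1, without which fewer of all genes were called too. With 1 library left out, log2 fold changes ran from 0.966 to 1.7 in Galk1, 0.623 to 1.48 in Pgm1 and 2.59 to 3.44 in Eno2. They ran from -1.07 to -0.721 in Dlat and -1.27 to -0.639 in Dld.

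Of 45 further HIF pathway and hypoxia genes, 42 were tested, 2 were called higher and 8 lower in siTfap4 against siNeg. These counts stand beside 4.24% higher and 11.7% lower of all genes tested, and the list's median log2 fold change was -0.11, beside 0.01 over all genes. Among the lower ones, Eloc, a subunit of the Vhl ligase, had 33.9 and 49.6 CPM in siTfap4 against 175 and 118 CPM in siNeg (log2 fold change -1.81, SE 0.32, edgeR adjusted p = 0.00284). Cul2, the scaffold of that ligase, had 20.0 and 45.02 CPM in siTfap4 against 103 and 86.9 CPM in siNeg (log2 fold change -1.54, and -2.26 without siTfap4 replicate 2), and Arnt, the partner of Hif1a, had a log2 fold change of -1.22. Elob and Rbx1, further subunits of that ligase, were not called, at -0.19 and -0.17. Nor were Egln2, a prolyl hydroxylase, at 0.17 and Hif1an, an asparagine hydroxylase acting on Hif1a, at 0.66 (edgeR adjusted p = 0.073). The HIF targets Cited2 and Bhlhe40 had log2 fold changes of -1.31 and -1.36, and Tfrc and Zfp395, also among the lower ones, had -0.90 and -1.20. Hmox1, the heme oxygenase, and Anxa2, an annexin, rose by 1.14 and 1.17. Arnt, Tfrc, Zfp395, Anxa2 and the 4 genes not called are named beyond the 6 with the smallest p, after their values were seen. Fewer genes of this list were called in both directions without siTfap4 replicate 1 or siNeg replicate 1, and so were fewer of all genes. Higher calls were also fewer without siNeg replicate 2 and more without siTfap4 replicate 2, in this list and over all genes. In siWiz and in siZic2 0 genes of either list were called against siNeg.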

How the data were processed

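The deposited table gives raw counts per Ensembl gene for 8 libraries, not normalized; per the submitters' processing notes reads were trimmed with Trim Galore and the build was GRCm38. The aligner, counting program, annotation release, strand setting and handling of reads with several places are not given in these sources. Between duplicates, chi-square over its degrees of freedom was 17.7 to 37.7, above counting noise. Molecular identifiers are not named, so PCR reads may not be independent molecules.

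Genes were filtered with filterByExpr, scaled by TMM and fitted with edgeR 4.0.16 in R 4.3.3 (quasi-likelihood, 1 mean per group, all 8 libraries, 4 residual degrees of freedom, biological coefficient of variation 22.2%). Benjamini-Hochberg adjustment ran over the 14647 genes tested, with a threshold of 0.05; the code was tested on simulated data. Each SE comes from the fold change and its F statistic. Alternatives were RLE size factors, library totals, 2 other filters, a fit of the 2 groups compared, a replicate block, DESeq2 1.42.0, each library left out, counts summed with copies, and a correction for transcript length and the GC content of 300 end bases, alone and with the block; for siWiz and siZic2 also both siTfap4 libraries left out. A single library was taken to vary as the other groups do. Of the value columns, 0 were left unmapped.

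Copies were searched with blastn among GENCODE M21 transcripts (1 transcript per gene queried), not in a genome as planned, since no genome sequence was used here; 50-base windows with at most 2 mismatches counted as copied. The genes, lists and tests were chosen with earlier results of these data known. Named are all 36 genes, with each library's value for those called in any comparison or among the 3 smallest p where nothing was called; up to 6 called genes of each further list, except that 1 such result is not reported here; and the 3 targeted genes.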

Additional observations from a re-analysis of the deposited data

How the results depend on the processing

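No direction of a called gene reversed under the alternatives run. The number of calls moved with the library left out, among the 36 and over all genes, in each comparison of siTfap4. Leaving out 1 library each gave 0 to 9 of the 36 genes higher and 2 to 7 lower in siTfap4 against siNeg, 0 to 8 and 1 to 6 against siWiz, and 0 to 9 and 3 to 7 against siZic2. For the further glycolysis genes it gave 0 to 3 higher and 0 to 5 lower in siTfap4 against siNeg, and for the further HIF genes 0 to 5 and 3 to 8. Over all genes the same step gave 6 to 1143 higher and 498 to 2179 lower calls against siNeg, beside 621 and 1709. With the 2 groups fitted alone, 2 of the 36 were higher against siNeg and 3 against siWiz, and 0 further glycolysis genes were lower; over all genes 266 were higher against siNeg and 349 against siWiz. The correction for GC content and length gave 7 of the 36 higher in siTfap4 against siNeg, where 884 of all 14647 genes tested were. With library totals alone, 1 further HIF gene was higher in siTfap4 against siNeg, beside 432 of all genes tested.

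The replicate numbers were not taken as pairs, since the labels name no shared batch and siTfap4 and siWiz correlated at -0.04; deviations of same-numbered libraries in the other 5 pairs of groups correlated at 0.13 (siTfap4 and siNeg) to 0.33 (siWiz and siNeg), so shared handling cannot be told from the data. With the replicate number as a block, Hk1 (edgeR adjusted p = 0.037) and Bnip3 (edgeR adjusted p = 0.0364) were called higher in siTfap4 against siNeg, 8 of the 36 were higher in siTfap4 against siWiz, and 1147 of all genes were higher against siNeg and 1100 against siWiz. The block with the GC and length correction gave 8 of the 36 and 4 further HIF genes higher in siTfap4 against siNeg. Of all 14647 genes tested, 1254 were higher in that fit. The block alone moved no other count of the 36 or of the further lists by over 1.5 times. Slc2a1 and Gapdh were called in 18 of 18 alternatives against siNeg, Tpi1 in 17, Kdm3a and Slc16a3 in 16, Pgam1 in 15, Gpi1 in 12 and Pfkl in 10. Pgk1 and Ankrd37 rest on few reads, with 12 and 3 counts in their lowest siTfap4 library. Whether the handling of reads with several places bears on the low Pgk1 counts was not tested.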

Other observations

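Some isoenzymes typical of other tissues had no reads. Hk3 and Pgk2, known from leukocytes and testis, had 0 counts in all 8 libraries, as had Epo, the kidney HIF target.

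The 36 genes together took 0.713% and 0.549% of counts in the siTfap4 libraries and 0.620% and 0.558% in the siNeg libraries. The enzymes of the upper and lower steps summed to 5074 and 3597 CPM in siTfap4 against 3227 and 3286 CPM in siNeg. The largest part of this sum was Aldoa, which was not called against siNeg, at 1792 and 1284 CPM in siTfap4 against 972 and 1112 CPM in siNeg. The correction for GC content and length lowered its log2 fold change over siNeg from 0.56 to 0.166. That correction also lowered Pkm to 0.0637 and Eno1 to 0.155, while it raised Gpi1 to 1.02 and Pfkp to 0.906. This difference between sums was not tested.

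The median GC content of the last 300 transcript bases was 45.8% in the 4 genes called higher, 47.5% in the 4 called lower and 41.3% in the 28 not called, beside 43.0% over all genes tested. Across the 36 genes, which are not independent replicates, GC content and log2 fold change in siTfap4 over siNeg had a Pearson correlation of 0.06 and a Spearman correlation of 0.17.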
